A study of Danio rerio with 1324 samples.

Results

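Of the 87 single cells of 1-month-old zebrafish (1 month post-fertilization, mpf) in the training table, 30 were taken as low-insulin cells and 57 as high-insulin cells. Cells were chosen by a single measured value, the deposited level of the insulin gene ins (ENSDARG00000035350): cells under 500000 TPM, a length-corrected share of transcripts scaled to a total of 1000000 per cell, were called low and the others high. The 30 cells made up 34.5% of the 1 mpf cells (95% exact binomial interval 24.6 to 45.4%), and the tables of the study hold 1014 cell columns in all. Pools of older animals, at 4, 10, 12, 13 and 14 mpf, enter only as a comparison. The study sorted beta-cells by their fluorescence from primary islets and sequenced each cell by itself, to learn how the transcriptome of these cells moves with age. Low-insulin and high-insulin cells shared transgene, age, diet and method of preparation. Both came from Tg(ins:BB1.0L) animals at 1 mpf under normal feeding. The methods give this line with a cryaa:RFP marker, and the paper also calls it Tg(ins:Betabow). Fish were outbred AB, WIK or hybrid WIK/AB per the methods, and each batch came from several fish. No label ties a cell to a fish, so the split of fish between the groups is not known. The cells were divided here by their ins value alone, and other differences between the groups are given below. The transgene is driven by the insulin promoter, so the sort selected for cells that use that promoter or retain its red fluorescent product. Whether every sorted cell did so was not tested. Kit names differ between the sources, SMART-Seq v4 in the sample labels and Smart-Seq2 in the methods.

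Beta-cells are the cells of the pancreatic islet that store insulin in dense granules and release it when blood glucose is high. Preproinsulin is threaded into the endoplasmic reticulum (ER), folded there with its disulfide bonds, carried through the Golgi and cut by the prohormone convertases inside acidifying granules. A beta-cell therefore spends a large part of its messenger RNA and of its ribosomes on a single protein, and its identity rests on transcription factors such as Pdx1, which binds the insulin promoter.

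The ins values, which chose the cells, are given as a description. Low-insulin cells had a lowest value of 1832, a median of 377761 and a highest of 497915 TPM, against 502877, 596883 and 778798 TPM in high-insulin cells. The low cells nearest to the limit held 497915 and 493823 TPM and the high cells nearest to it 502877 and 514710 TPM. Of the 87 cells, 42 lay between 400000 and 600000 TPM, 11 of them low and 31 high. The groups are thus adjoining parts of a range rather than separate clusters. In whole reads, ins took a median of 13.7% of a cell's reads in low-insulin cells and 29.3% in high-insulin cells. The second insulin gene, insb, had no read in any of the 87 cells.

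Since TPM sums to a fixed total, every other gene is squeezed in a cell with more ins. The remaining genes were therefore rescaled to 1000000 without ins, and each gene is described by the mean over cells of log2(rescaled TPM + 1), low-insulin minus high-insulin. A difference of at least 1 in size is called here past the fold size, among the 4592 genes with a mean of at least 2 over the 87 cells. Such a value is a share of the RNA that remains beside ins, not an amount per cell, and for a gene that many cells lack it depends mostly on how many cells had a read. The training cells used here carry 1 pool label per age and were divided by a gene of their own. They are thus not replicates of a condition, and no test was run on any gene.

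A second table of 1 mpf cells, labelled as a new batch, was examined with the same limit. All 30 of its cells matched 30 training cells 1 to 1. The correlation of a matched pair was 0.967 to 0.997, whereas the next best training cell reached 0.438 to 0.524. The chi-square per gene of a matched pair was 0.959 to 1.05, over 3029 to 5059 genes, which is what sampling noise alone gives, and 23.9 to 87.4 for the next best cell. Thus the matched pairs differed by no more than the sampling noise and were counted as 1 cell each. All 30 kept their class, 11 low and 19 high, and the second table is used below only as a repeat of these cells. In its place, the 87 cells were divided into the 30 listed in both tables (11 low, 19 high) and the 57 listed once (19 low, 38 high), which share no cell.

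The groups had similar medians of reads beside ins, but the first quartile was 252134 in low-insulin and 398128 in high-insulin cells. Low-insulin cells had 118306 to 912413 reads with a median of 527841, against 133673 to 3020662 with a median of 689633 in high-insulin cells. Reads outside ins had medians of 438847 in low-insulin cells and 458954 in high-insulin cells, while reads of ins itself had medians of 67004 and 191137 in the same order. The number of genes with a read was larger in low-insulin cells, with medians of 5103.5 and 4647 in low-insulin and high-insulin cells. When each cell was thinned to 20000 reads outside ins, the medians were 3466 and 3238. The difference in medians was 767 genes in the 30 cells listed in both tables and 135.5 genes in the 57 cells listed once.

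Next, the cells were examined for the markers of other islet and pancreatic cells. Most low-insulin cells carried beta-cell markers: pdx1 had a read in 30 of 30 low-insulin and 57 of 57 high-insulin cells. The summed level of the 8 beta-cell markers other than ins was 4.07 to 8234 rescaled TPM with a median of 3678 in low-insulin cells, and 1589 to 15544 with a median of 5149 in high-insulin cells. Neurod1, a transcription factor shared by all islet endocrine cells, had medians of 494 and 370 rescaled TPM in low-insulin and high-insulin cells. Ucn3l, the urocortin 3 gene that marks mature beta-cells in mammals, had a read in 10 of 30 low-insulin and in 17 of 57 high-insulin cells, and was at 0 in the median cell of both.

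However, 6 of the 30 low-insulin cells stood apart. The cell with the lowest ins, 1832 TPM, had pdx1 at 4.07 and its other islet hormones summed to 29.7 rescaled TPM, yet it held 26542 of cd74a, the invariant chain of antigen presentation, and 28491 of the chemokine gene ccl39.1. The next, with ins at 12632 TPM, held 495963 rescaled TPM of gcgb and 114535 of gcga, the glucagon genes of alpha-cells, with 20.8 of the alpha-cell factor arxa and only 57.96 of pdx1. A pair of cells held ins beside somatostatin, the hormone of delta-cells: sst2 stood at 245061 rescaled TPM in the cell with 264017 TPM of ins, and at 201255 in the cell with 300693 TPM of ins. These somatostatin-rich cells still had pdx1 at 1926 and 929 rescaled TPM. The last 2 were rich in gcgb, at 275009 rescaled TPM where ins was 400510 TPM, and at 52561 where ins was 493313 TPM. Whether such cells are single cells with several hormones, or wells with more than 1 cell or with free RNA, was not tested.

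Cells with more than 50000 rescaled TPM of the other islet hormones were 5 of 30 low-insulin cells (16.7%, exact interval 5.64 to 34.7%) and 2 of 57 high-insulin cells (3.51%, 0.428 to 12.1%). In the 5 older pools analysed here they were the main kind of low-insulin cell, while the cells of 3, 6 and 9 mpf were not counted. Low-insulin cells numbered 9 of 88 at 4 mpf (10.2%), 3 of 92 at 10 mpf (3.26%), 3 at 12 mpf (2.70%), 1 of 50 at 13 mpf and 5 of 60 at 14 mpf (8.33%). Of these 21 older cells, 19 were rich in other hormones (90.5%, 69.6 to 98.8%). Low-insulin cells that were neither rich in other hormones nor nearly without ins (under 50000 TPM) numbered 24 at 1 mpf and 1 in these 5 older pools together. These pools thus offered almost no cells like the 24, and age and pool cannot be told apart, since each age is a pool of its own. The intervals cover counting error only. The total of the deposited TPM includes the other hormones, so abundant hormone RNA by itself lowers the ins value that chose the cells. Some low-insulin calls among hormone-rich cells can follow from this, and its part was not tested.

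**Figure D1:**
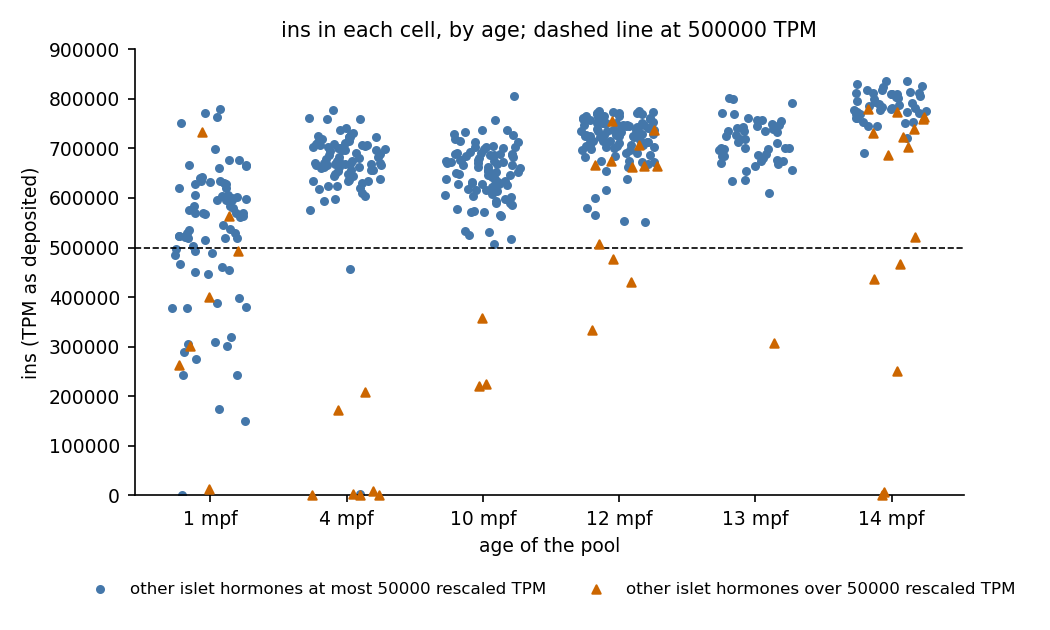
Level of ins in each cell (TPM as deposited) by age of the pool, with triangles for cells whose other islet hormones exceed 50000 rescaled TPM and a dashed line at 500000 TPM. Below the line, 25 of the 30 cells at 1 mpf are circles, whereas 19 of the 21 cells of the other pools shown are triangles.

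Markers of non-endocrine cells were low in most cells. The 18 immune markers summed to a median of 11.9 rescaled TPM in low-insulin cells, with a highest of 38042 in the cell almost without ins and a second highest of 7436, against a median of 2.44 and a highest of 2352 in high-insulin cells. Of these 18, 5 had no read at all, lyz and tyrobp among them. The 14 acinar markers had medians of 27.5 in low-insulin cells, where 1 cell reached 2957, and 6.29 in high-insulin cells, where the highest was 276. The 12 ductal markers had medians of 345.2 and 189.1 in low-insulin and high-insulin cells, with highest values of 5613 and 2849. The 8 endothelial and 12 stromal markers were at 0 in the median cell of both groups, with no read of the endothelial genes kdrl and cdh5, and 5 of the 6 erythroid markers had no read in any cell. Because the 6 cells apart differ between the groups, many values are given again without the cells of both kinds, those under 50000 TPM of ins and those rich in other hormones. This alternative, chosen after the data were seen, left 24 low-insulin and 55 high-insulin cells.

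Across the 87 cells, 408 of 4592 genes (8.89%) were past the fold size in the higher direction in low-insulin cells and 225 (4.9%) in the lower direction. Without the cells of both kinds, 626 genes were higher. With TPM as deposited, where ins stays in the total, the split was 884 higher and 37 lower, so the rescaling decides the share of each direction. The median over all genes tested was 0.05, and 0.20 without the cells of both kinds. Among the 30 cells listed in both tables, 913 genes (19.9%) were higher and 573 (12.5%) lower, and among the 57 cells listed once 539 (11.7%) were higher and 418 (9.1%) lower. Genes past the fold size in both sets were 3.22% in the higher and 1.55% in the lower direction. The second table gave 948 (19.8%) higher and 620 (12.9%) lower of 4788 genes.

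Most single genes did not keep their value from the first set of cells to the other. Of the 913 genes higher in the 30 cells, 16.2% were also past the fold size in the 57 cells, which is 27.5% of the 539 found there. For lower genes, the 71 shared ones were 12.4% of the 573 and 16.99% of the 418. Of all 4592 genes, 11.7% were higher and 9.1% lower in the 57 cells, against 19.9% and 12.5% in the 30 cells. The shared parts were thus only somewhat above the shares over all genes. A further measure was the sign alone: of the 913 genes, 554 (60.7%) were also above 0 in the 57 cells, and of the 573, 310 (54.1%) were also below 0. Across all 4592 genes, 1405 (30.6%) were above 0 in both sets and 1136 (24.7%) below 0 in both, so that 55.3% had the same sign. The correlation of the differences between the 30 and the 57 cells was 0.13 across genes, which are not independent, whereas that between the 30 cells and their repeat in the second table was 0.98. Agreement grew with the level of the gene, from 0.03 over the 1568 genes with a mean of 2 to 3 up to 0.43 over the 226 genes with a mean of 9 or more, 76.1% of which had the same sign in both sets.

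**Figure D2:**
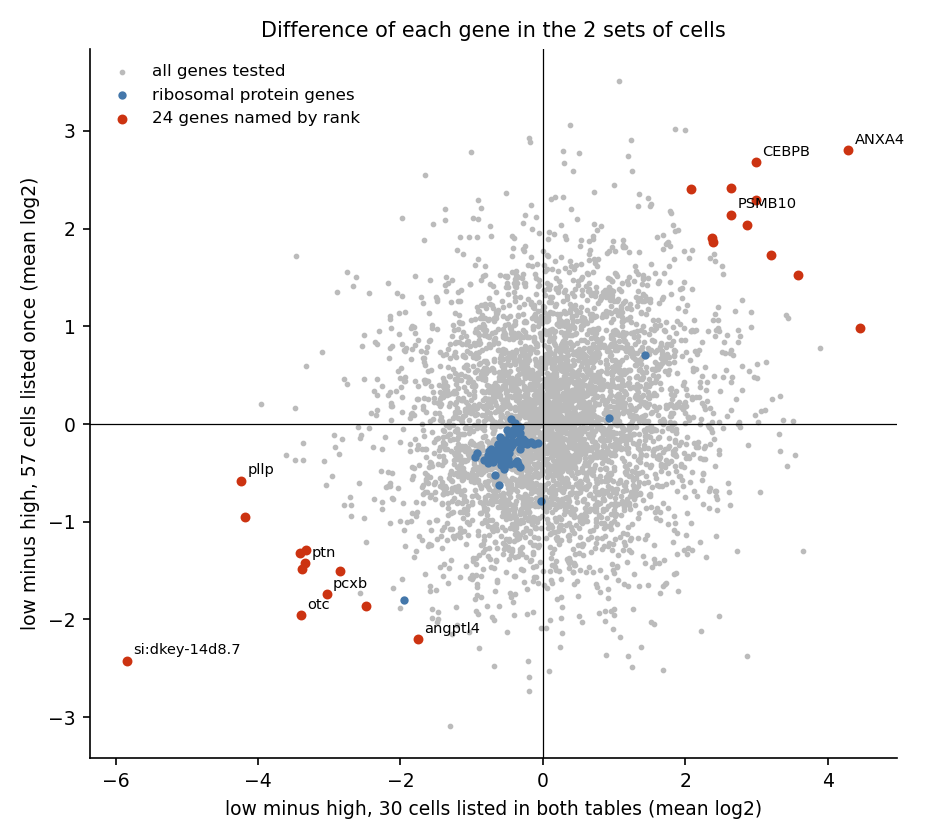
Each point is a gene, with its low-insulin minus high-insulin difference in the 30 cells listed in both tables on the x axis and in the 57 cells listed once on the y axis (both mean log2). The cloud of 4592 genes is nearly round (r = 0.13), while 78 of 82 ribosomal protein genes lie below 0 on both axes. The 24 genes named by rank lie in the outer corners because the rank asked for a large difference.

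The ribosomal protein genes showed the most even difference. They build both subunits of the ribosome and are among the most abundant transcripts of a cell. Their summed level was 8.03 to 25.5% of the rescaled total with a median of 15.6% in low-insulin cells, against 7.36 to 32.7% with a median of 21.4% in high-insulin cells. Of the 30 low-insulin cells, 26 lay below the median of the high-insulin cells, although the ranges overlapped widely. The median difference over the 82 genes tested was -0.38, with -0.52 in the 30 cells, -0.27 in the 57 cells and -0.30 without the cells of both kinds. A total of 78 genes were below 0 in both sets of cells and 2 above, beside 24.7% and 30.6% of all genes. Only RPL22L1 was past the fold size, so the difference was small for each gene and shared by nearly all. The same direction was seen in older pools: at 4, 10, 12 and 14 mpf, 82, 74, 80 and 81 of the 82 genes were below 0. Of all 4592 genes, 3421, 2541, 1881 and 2579 were below 0 in these pools. The medians of the ribosomal protein genes there were -1.64, -0.35, -0.70 and -0.69, beside -0.71, -0.20, 0.38 and -0.20 over all genes. Low-insulin cells of those pools were few and mostly rich in other hormones. Hormone RNA stays in the rescaled total and lowers the share of every other gene, and the part of this was not tested.

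High-level members illustrate its size. Rps2, of the small subunit, had 1067, 6584 and 16996 rescaled TPM as lowest, median and highest value in low-insulin cells, against 2623, 8217 and 16738 in high-insulin cells. Rpl32, of the large subunit, had 2462, 5848 and 10858 in low-insulin cells, against 1764, 6964 and 12212 in high-insulin cells. Their differences were -0.43 and -0.32, and -0.19 and -0.22 without the cells of both kinds. RPL22L1, a paralog of the large subunit protein L22, had a read in 24 of 30 low-insulin and 54 of 57 high-insulin cells and a difference of -1.82. Other genes of the same level moved less as a group. Among genes with a mean of 9 or more, the 77 ribosomal ones had a median of -0.39 with 75 below 0 in both sets, and the others had a median of -0.15 with 73 below and 24 above 0 in both sets.

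Among beta-cell genes, pdx1 and pcsk1 were lower in low-insulin cells. Pdx1 had 4.07, 2408 and 6989 rescaled TPM as lowest, median and highest in low-insulin cells, against 410, 4227 and 13284 in high-insulin cells. Its difference was -0.93, with -1.45 in the 30 cells and -0.64 in the 57 cells. Without the cells of both kinds it was -0.37, so most of the mean difference came with the few cells apart. Pcsk1, a convertase that cuts proinsulin, had 3.61, 551 and 2152 in low-insulin cells, against 194, 866 and 3832 in high-insulin cells. Its difference was -0.96, and -0.56 without these cells. The other convertase, pcsk2, had a difference of -0.38 (-0.15 without these cells).

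Other beta-cell transcription factors went in either direction. Mnx1, a homeobox factor of the beta-cell lineage, had a read in 27 of 30 low-insulin cells with a median of 202 rescaled TPM and a highest of 1536, against 42 of 57 high-insulin cells with a median of 138.8 and a highest of 966. Its difference was 1.21, and 1.49 without the cells of both kinds. The difference of neurod1 was 0.01. Isl1 and foxa3, singled out after their values were seen, were past the fold size in the lower direction, at -1.06 and -1.02. The difference of foxa3 was -0.91 in the 30 cells and -1.13 in the 57 cells, and that of isl1 was -0.12 and -1.57 in the same order. Over the 17 factors tested, 2 were past the fold size in the higher and 2 in the lower direction, with a median of -0.15, and 4 were above and 5 below 0 in both sets of cells. The shares over all genes were 8.89% higher and 4.9% lower, with 30.6% above and 24.7% below 0 in both sets.

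The granule genes encode the contents of the secretory granule and the proteins that dock and fuse it. Of 31 tested, 2 were past the fold size in the higher direction and 1 in the lower, and the median was -0.43, with -0.26 in the 30 cells and -0.45 in the 57 cells. A total of 15 were below and 4 above 0 in both sets. Without the cells of both kinds, the median was -0.06. The counts past the fold size are near the shares over all genes, 8.89% higher and 4.9% lower. Of all genes, 24.7% were below and 30.6% above 0 in both sets. The 2 higher genes were VGF, at 1.90, and atp6ap1b, at 1.93, and both were past the fold size in both sets. The lower one was an identifier of SNAP25, ENSDARG00000058117, at -1.42, and another identifier of this symbol, ENSDARG00000020609, gave -0.44. Scg3, the granin secretogranin III, had 17.3, 9402 and 35914 rescaled TPM in low-insulin cells, against 4007, 9911 and 25049 in high-insulin cells, so the middle cells were alike and the lowest were not. Its difference was -0.64, and -0.18 without these cells. Scgn, the calcium sensor secretagogin, gave -0.56 and -0.20 in the same order.

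**Figure D3:**
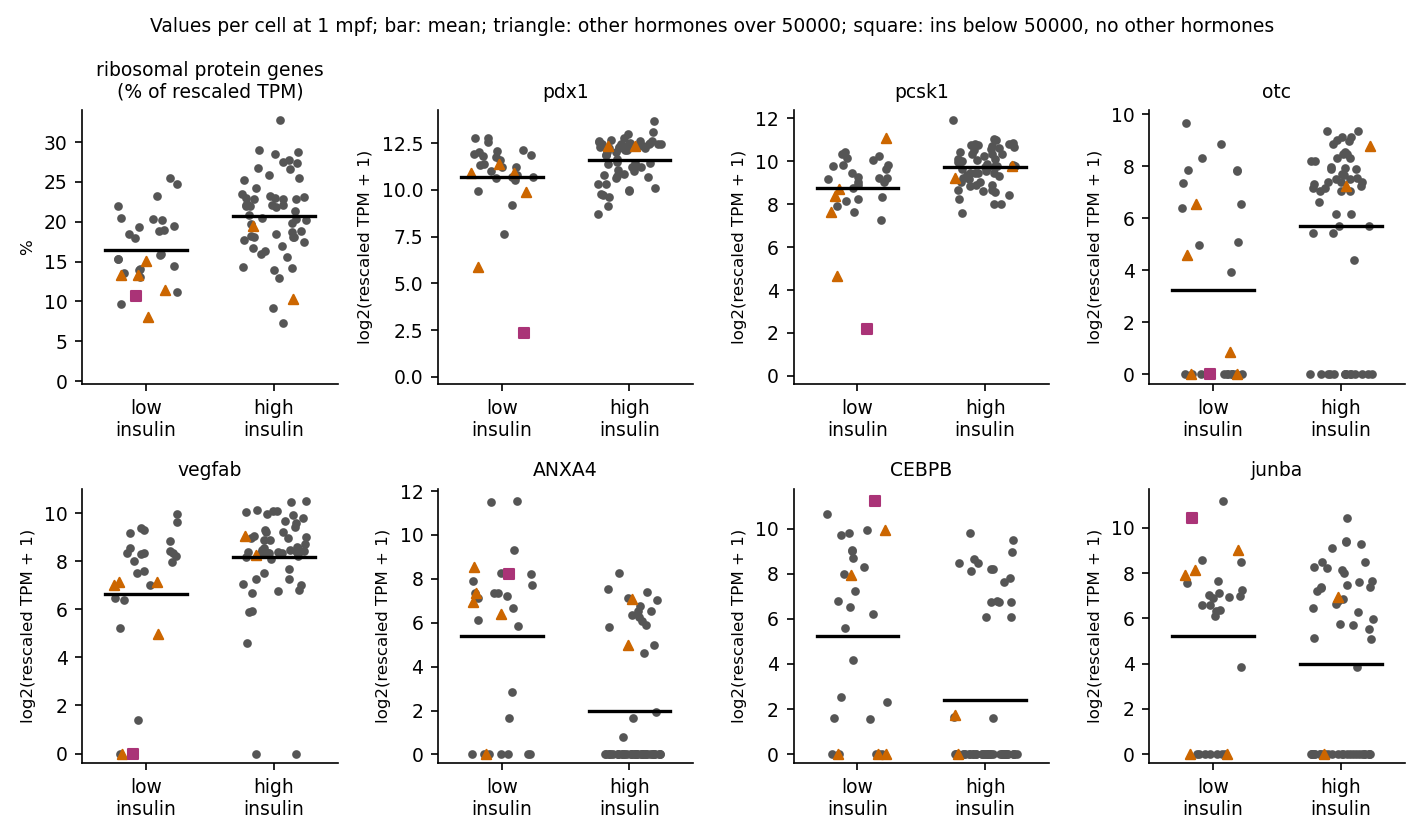
Values of each cell for ribosomal protein genes (percent of rescaled TPM) and for 7 genes (log2 of rescaled TPM + 1), low-insulin cells left and high-insulin cells right, with bars at the mean. Triangles are cells with other hormones over 50000 rescaled TPM and the square is the cell almost without ins and without other hormones. The lowest pdx1 and pcsk1 values belong to such cells, whereas the many zeros of otc in low-insulin cells and of ANXA4 and CEBPB in high-insulin cells are mostly circles.

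Genes of glucose handling, listed together with channel genes, had a median below 0 but were not all lower. Of 10 tested, 2 were past the fold size in the lower direction and none in the higher, with a median of -0.64 (-0.26 without the cells of both kinds). A total of 7 were below and 3 above 0, and 5 were below and none above 0 in both sets of cells. Of all genes, 24.7% were below and 30.6% above 0 in both sets. Without the cells of both kinds, 6 were below and 4 above 0. The 3 above 0 were LDHB, ucp2 and the channel gene kcnj11, and each changed sign between the sets. The 2 lower genes were pcxb and g6pcb, and over all genes 4.9% were lower and 8.89% higher. Pcxb encodes pyruvate carboxylase, which feeds pyruvate into the citric acid cycle as oxaloacetate. It had a read in 24 of 30 low-insulin cells with a median of 18.99 and a highest of 247 rescaled TPM, against 56 of 57 high-insulin cells with a median of 93.1 and a highest of 530. The difference was -2.19, and -2.41 without the cells of both kinds. G6pcb, a catalytic subunit of glucose-6-phosphatase, had a read in 24 of 30 low-insulin cells with a median of 140.5, against 51 of 57 high-insulin cells with a median of 369, and a difference of -1.72 (-1.45 without these cells).

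Otc had the second lowest difference of the genes named by rank. It encodes ornithine transcarbamylase, a mitochondrial enzyme of the urea cycle. It had a read in 15 of 30 low-insulin cells with a median of 0.401 and a highest of 818 rescaled TPM, against 43 of 57 high-insulin cells with a median of 150.8 and a highest of 660. Its difference was -2.49, with -3.39 in the 30 cells, -1.95 in the 57 cells and -2.10 without the cells of both kinds. The lowest difference, -3.64, belonged to si:dkey-14d8.7, a gene without a descriptive name, with a read in 15 of 30 low-insulin cells and a median of 13.8, against 52 of 57 high-insulin cells and a median of 332. It was -5.84 in the 30 cells and -2.42 in the 57 cells. Thus these genes differed mainly by the number of cells without a read, and the ranges of the cells with reads overlapped.

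Several genes of hypoxia and glucose output are described singly. They come from a list of 17 tested genes put together after values had been seen, which shares g6pcb and otc with the genes above, so its 9 lower genes, 1 higher gene and median of -1.08 follow from the choice and say nothing of the pathway. Vegfab, a vascular endothelial growth factor that hypoxia raises, had a read in 26 of 30 low-insulin cells with a median of 223 and a highest of 995 rescaled TPM, against 55 of 57 high-insulin cells with a median of 348 and a highest of 1440. Its difference was -1.57, with -1.65 in the 30 cells, -1.53 in the 57 cells and -0.99 without the cells of both kinds. Ndufa4l2a, whose mammalian counterpart is a target of the hypoxia factor HIF1, had 0, 874 and 3313 in low-insulin cells, against 120, 1486 and 4288 in high-insulin cells, and a difference of -1.51 (-0.88 without these cells). GYS1, a glycogen synthase, had medians of 3.13 and 55.2 in low-insulin and high-insulin cells and a difference of -1.66 (-1.15 without these cells). Angptl4, an inhibitor of lipoprotein lipase, had a read in 24 of 30 low-insulin cells with a median of 186, against 55 of 57 high-insulin cells with a median of 357, and a difference of -2.04. Its value was -1.75 in the 30 cells and -2.20 in the 57 cells.

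The other 8 of the 12 lower genes named by rank had differences of -1.88 to -2.14. They were snx9b, a sorting nexin of endocytosis, ptn, the growth factor pleiotrophin, ift20, of intraflagellar transport, TMBIM1, SNCG, a synuclein, eml2, a microtubule-associated protein, dgkaa, a diacylglycerol kinase, and pllp, the membrane protein plasmolipin. All 8 were lower in both sets of cells, but both sets had entered the rank, so this follows largely from the choice. The 57 cells gave smaller sizes, from -0.58 for pllp to -1.87 for SNCG, than the 30 cells, from -2.49 for SNCG to -4.24 for pllp, which entered the ranking through both tables.

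In the higher direction, ANXA4 led the ranking. It encodes annexin A4, a calcium-dependent membrane-binding protein that is also a marker of pancreatic duct cells. It had a read in 22 of 30 low-insulin cells with a median of 130 and a highest of 2959 rescaled TPM, against 20 of 57 high-insulin cells with a median of 0 and a highest of 305. The difference was 3.39, with 4.29 in the 30 cells, 2.81 in the 57 cells and 3.32 without the cells of both kinds. Thinned to 20000 reads outside ins, it had a read in 17 of 30 low-insulin and 11 of 57 high-insulin cells. Krt8, a keratin of simple epithelia from the same marker list, had a difference of 1.80, and these were 2 of the 3 ductal markers tested. The third, krt18, another keratin, gave -0.20 over the 87 cells, 0.77 in the 30 cells and -0.70 in the 57 cells. The level of the whole ductal list is given above and its part in these values was not tested.

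CEBPB, a transcription factor of the stress and amino acid response, came next. It had a read in 22 of 30 low-insulin cells with a median of 81.7 and a highest of 2354 rescaled TPM, against 20 of 57 high-insulin cells with a median of 0 and a highest of 898. Its difference was 2.80, with 2.99 in the 30 cells, 2.68 in the 57 cells and 2.84 without the cells of both kinds. The amino acid response comprises ATF4, the factors it induces and the enzymes that make and charge amino acids. Of 30 genes tested, 5 were past the fold size in the higher direction and none in the lower, and 17 were above and 2 below 0 in both sets. The median was 0.33, and 0.75 without the cells of both kinds, beside 0.05 and 0.20 over all genes. The shares over all genes were 8.89% higher and 4.9% lower past the fold size, with 30.6% above and 24.7% below 0 in both sets.

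Psat1, an enzyme of serine synthesis, had a read in 27 of 30 low-insulin cells with a median of 304, against 44 of 57 high-insulin cells with a median of 152.004, and a difference of 1.48 (1.997 without the cells of both kinds). CTH, which makes cysteine, had a read in 19 of 30 low-insulin and 20 of 57 high-insulin cells and a difference of 1.72. TRIB3, a pseudokinase induced in this response, had a read in 23 of 30 low-insulin cells and 28 of 57 high-insulin cells and a difference of 1.89. Its highest values were 767 in low-insulin and 3426 in high-insulin cells, and the log2 ratio of the mean TPM was -0.17, so its direction depends on how cells are averaged.

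Immediate early genes, which cells switch on within minutes of a stimulus, were higher as well. Of 25 tested, 6 were past the fold size in the higher direction and none in the lower. The median was 0.46, with 12 above and 2 below 0 in both sets. ATF3, at 1.40, was among these 6 and also among the higher amino acid response genes, so the counts are not separate. Over all genes, 8.89% were higher and 4.9% lower past the fold size, and 30.6% were above and 24.7% below 0 in both sets. Ier2 (ENSDARG00000099195) had a read in 25 of 30 low-insulin cells and 37 of 57 high-insulin cells. The medians were 213 and 42.9 in the same order, and the difference was 1.66 (1.35 without the cells of both kinds). Another tested identifier of this symbol, ENSDARG00000086881, had a difference of -0.03, with 1.59 in the 30 cells and -0.97 in the 57 cells. Junba, a subunit of the AP-1 factor, had a read in 21 of 30 low-insulin cells with a median of 106.4 and a highest of 2299, against 31 of 57 high-insulin cells with a median of 34.5 and a highest of 1369. Its difference was 1.27, with 1.07 in the 30 cells and 1.38 in the 57 cells, but -0.14 when cells were divided at 600000 TPM of ins. Fosab, its partner, names 2 identifiers in the annotation. The abundant one, ENSDARG00000031683, had medians of 1133 and 857 in low-insulin and high-insulin cells and a difference of 0.33, which was -0.07 in the 30 cells and 0.50 in the 57 cells. NR4A1, a nuclear receptor of the same class, had a difference of 1.22, but a log2 ratio of the mean TPM of -0.40.

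Next come the genes of protein breakdown and folding, whose counts are to be set against 8.89% higher and 4.9% lower over all genes. The proteasome, which degrades ubiquitin-tagged proteins, had 4 of 44 genes past the fold size in the higher direction, near that share, and none in the lower. Its median was 0.26, with 0.36 in each set of cells, beside 0.05 over all genes. Psmd6, of its regulatory lid, had a read in 29 of 30 low-insulin cells with a median of 200, against 43 of 57 high-insulin cells with a median of 127.3, and a difference of 1.87. PSMB5, a catalytic subunit, gave 1.28. PSMB10, whose mammalian counterpart belongs to the immunoproteasome, had a read in 24 of 30 low-insulin and 32 of 57 high-insulin cells and a difference of 2.29.

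Of 23 heat shock genes, 2 were higher and 1 lower past the fold size, near the shares over all genes. Their median was 0.11, and 12 were above and 3 below 0 in both sets, beside 30.6% and 24.7% of all genes. The 2 higher genes were the cochaperones bag3 and dnaja1, with differences of 1.52 and 1.39. Bag3 had medians of 349 and 95.2 rescaled TPM in low-insulin and high-insulin cells. The V-ATPase, the proton pump that acidifies granules and lysosomes, had 5 of 20 genes past the fold size in the higher direction and none in the lower, and a median of 0.21. Of all genes, 8.89% were higher and 4.9% lower. Atp6v1c1a and atp6ap1b, parts of this pump, had differences of 1.75 and 1.93, and atp6ap1b was also counted among the granule genes. The gene for beta-2-microglobulin, b2m, the light chain of MHC class I, had medians of 1510 and 824 in low-insulin and high-insulin cells and a difference of 0.89 (1.13 without the cells of both kinds). The immune marker sums above rise in the same direction and their part in it was not tested.

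The counts for genes of mitochondria stand beside 8.89% higher and 4.9% lower over all genes. The mitochondrial ribosome had 8 of 63 genes past the fold size in the higher direction and 1 in the lower, and its median was 0.42 in the 30 cells but 0.02 in the 57 cells. MRPS17 and MRPL13, of the small and the large subunit, had differences of 2.56 and 2.66. The respiratory chain had a median of 0.00 over 83 genes, 7 of them higher and 1 lower past the fold size. Cox6b1, a subunit of cytochrome c oxidase, was among the higher ones at 2.28, with a read in 18 of 30 low-insulin and 16 of 57 high-insulin cells. Glycolysis had a median of -0.08 over 17 genes, 2 of them higher and none lower past the fold size. Of other groups, cell cycle genes had 3 of 14 higher and none lower, interferon and inflammation genes 2 of 17 higher and none lower, and apoptosis and p53 genes 2 of 16 higher and 1 lower, beside 8.89% higher and 4.9% lower over all genes.

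The other higher genes named by rank had differences of 2.04 to 2.51. They were si:ch211-39i2.2 and si:dkey-238c7.13, which have no descriptive name, bxdc2, amy2al1, an amylase of the kind made by acinar cells, il10rb, a cytokine receptor chain, msna, the membrane linker moesin, and me3, a malic enzyme. All were higher in both sets of cells, but both sets had entered the rank, so this follows largely from the choice. Si:dkey-238c7.13 was also the gene with the highest rescaled TPM, 45541, in the cell almost without ins, and its difference was 4.46 in the 30 cells but 0.98 in the 57 cells.

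The genes of transport through the ER and Golgi had a median below 0. Of 54 genes of ER translocation and transport, 2 were past the fold size in the higher and 6 in the lower direction, with a median of -0.35 and with 29 below and 10 above 0 in both sets. Past the fold size in both sets were 1 gene in the higher direction and 0 in the lower. Without the cells of both kinds, the median was -0.11, with 32 genes below and 22 above 0. The shares over all genes were 8.89% higher and 4.9% lower past the fold size, with 30.6% above and 24.7% below 0 in both sets. Sec13, of the COPII coat that buds vesicles from the ER, had a difference of -1.24 but 0.43 with a limit of 600000 TPM, so its direction depends on the limit. KDELR3, a receptor that returns ER proteins, gave -1.02 for ENSDARG00000040912 and -0.39 for another identifier, ENSDARG00000104519. The unfolded protein response had 2 of 43 genes higher and 2 lower past the fold size, to be set against the same shares. TRIB3, among the higher ones, was also counted in the amino acid response. The median of the unfolded protein response was -0.16, and 0.12 without the cells of both kinds. Hspa5, its main ER chaperone, had medians of 3722 and 3443 rescaled TPM in low-insulin and high-insulin cells and a difference of -0.18.

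**Figure D4:**
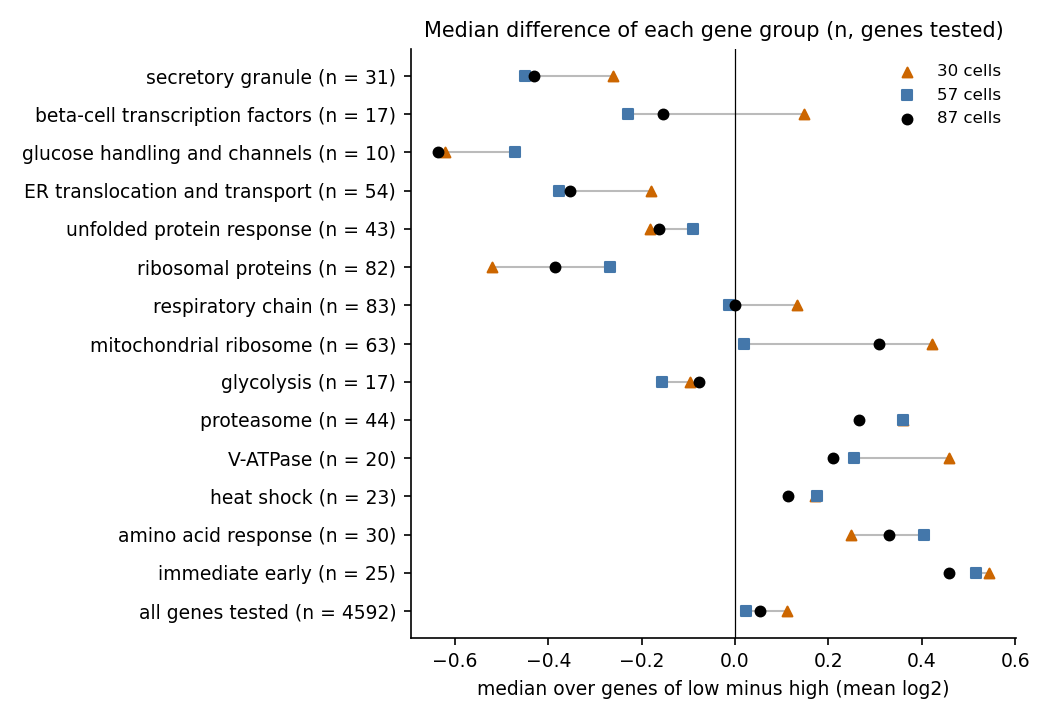
Median over genes of the low-insulin minus high-insulin difference (mean log2) for each gene group, in all 87 cells (circles), the 30 cells listed in both tables (triangles) and the 57 cells listed once (squares), with the number of genes tested. Ribosomal protein genes lie below 0 in each set (-0.52 and -0.27), amino acid response and immediate early genes above 0, and beta-cell transcription factors on either side.

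Most other islet hormone genes differed in sign between the 2 sets of cells. Sst2 gave -0.75 over the 87 cells, 1.55 in the 30 cells and -2.04 in the 57 cells. Gcga gave -0.22, 0.88 and -0.87 in the same order. Gcgb, at 0.37, 0.89 and 0.03, and PYY, the peptide YY gene, at 0.16, 0.32 and 0.03, were above 0 in both sets, the 57 cells giving almost no difference. The values were, for sst1.1 -0.29, 0.16 and -0.51, for sst1.2 0.00, 1.27 and -0.70, and for ghrl, the ghrelin gene, 0.05, 1.603 and -0.86. The somatostatin-rich low-insulin cells and the low-insulin cell with the most glucagon RNA all lay in the 30 cells.

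Finally, the cells were placed in 4 ranges of ins: 19 cells below 400000 TPM, 11 from 400000 to 500000, 31 from 500000 to 600000 and 26 from 600000 upwards. For some genes the mean log2 level moved step by step. These genes had been named with their difference across 500000 TPM known, and the ranges divide the same cells by the same ins values. A step across that limit thus follows largely from the choice. The cells apart were kept in the ranges, and a trend was not tested. Otc stood at 2.49, 4.49, 5.18 and 6.35 from the lowest to the highest range, pcxb at 3.32, 5.08, 5.62 and 6.79, and vegfab at 6.40, 7.01, 7.79 and 8.67. CEBPB went the other way, at 6.01, 3.87, 3.45 and 1.198, as did psmd6, at 7.52, 6.45, 5.47 and 5.01, and ier2, at 6.78, 5.65, 5.52 and 3.73. Others differed mainly in the lowest range. Pdx1 stood at 10.35, 11.29, 11.70 and 11.52 and pcsk1 at 8.28, 9.57, 9.81 and 9.60. Junba had no step-by-step order, at 5.19, 5.30, 3.52 and 4.50.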

How the data were processed

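Single beta-cells of zebrafish were sorted and sequenced, 1 column per cell. Per the labels and the methods, the authors trimmed reads with Trim Galore, aligned them to GRCz10 with HISAT2 and obtained read counts per gene with HTSeq; versions are not given in the sources used here. They removed cells that failed quality control and deposited raw counts and TPM, the counts divided by gene length and scaled to 1000000 per cell. Of 1014 cell columns, 496 were not used, as their ages or names entered no comparison.

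TPM was rescaled without ins. Counts gave depth, genes detected, thinning (20000 or 50000 reads outside ins) and the match between tables. Whole reads came back from TPM for 100% of values (tolerance 0.02), with a length for 22067 genes. Symbols were paired with 26192 of 31916 identifiers. Python 3.11.15, numpy 2.4.6, pandas 2.3.3, scipy 1.17.1 and matplotlib 3.10.9 were used, and the scripts were tested on simulated data. Intervals are exact Clopper-Pearson at 95%.

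The members, gene lists and limits were chosen with earlier results of these data known, and the hypoxia and glucose output list after its values were seen. Ribosomal, mitochondrial ribosome, respiratory chain, proteasome and V-ATPase lists were set by symbol pattern after the tables were opened. Genes were named by rank when the sign was the same in both 1 mpf tables, also when thinned, and in the training table without cells rich in other hormones: the first 12 in each direction by the smaller of the 2 differences. From each list, members past the fold size in both tables and the 2 of highest level could be named, and islet hormones, pdx1, mnx1, ucn3l, pcsk1, pcsk2, junba and fosab always were. GYS1, vegfab and ndufa4l2a were named from the list chosen after its values were seen. Alternatives changed the limit on ins, the pseudocount (1, against 10 and 0.1), the filter on low values, the scaling, the thinning and the cells included.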

Additional observations from a re-analysis of the deposited data

How the results depend on the processing

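The count or share of genes past the fold size moved by over 1.5 times under 10 of 20 alternatives in each direction over the 87 cells, and the other 10 moved it less. The filters also change the number of genes tested, so that the share can stay close where the count does not. Over the 87 cells, 8.89% were higher. This became 14.3% with a limit of 600000 TPM, 16.1% without cells near the limit, 0.958 and 19.7% with pseudocounts of 10 and 0.1, 1.46% by the log2 ratio of mean TPM, 19.3% with TPM as deposited, 13.6% without the cells of both kinds, 19.9% in the 30 cells listed in both tables, and 8.76 and 3.43% with a filter at 3 and with none. The 4.9% lower became 12% with a limit of 400000 TPM, 12.6% without cells near the limit, 0.697 and 10.6% with the pseudocounts, 7.53% thinned to 20000 reads, 2.66% by the ratio, 0.806% as deposited, 9.1 and 12.5% in the 57 and 30 cells, and 1.37% with no filter.

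In the second table, 19.8% higher became 30.1% at 600000 TPM, 4.7 and 30.2% with the pseudocounts, 4.59% by the ratio, 33.1% as deposited, and 19.01, 18.8 and 11.4% with filters at 1, at 3 and none. The 12.9% lower became 3.82% with a pseudocount of 10, 3.55% as deposited, 12.5% with a filter at 3 and 6.03% with none. In both tables together, 5.89% higher became 11.04% at 600000 TPM, 11.8% without cells near the limit, 0.596 and 13.7% with the pseudocounts, 0.687% by the ratio, 13.9% as deposited, 9.35% without the cells of both kinds and 2.68% with no filter. The 3.18% lower became 6.87% at 400000 TPM, 7.67% without cells near the limit, 0.481 and 6.3% with the pseudocounts, 1.63% by the ratio, 0.367% as deposited and 1.06% with no filter. Low-insulin cells, 34.5% of the cells, were 21.8 and 70.11% with limits of 400000 and 600000 TPM and 98.9% with the limit on the share of reads. The share of reads is not an equal cut: cells with 497915 and 502877 TPM held 20.6 and 22.2% of reads in ins. The cause of the other changes was not tested.

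Signs turned at 600000 TPM for sec13 (0.43) and junba (-0.14), and by the ratio of means for NR4A1 (-0.40) and TRIB3 (-0.17). At 12 mpf, whose 3 low-insulin cells were all rich in other hormones, 20 named genes had the opposite sign, 31 moved in size only and 15 stayed close. The 20 were eml2 1.27, RPL22L1 0.23, TRIB3 -0.34, GYS1 1.96, mnx1 -2.35, atp6ap1b -1.52, ift20 0.21, KDELR3 1.79, CEBPB -0.20, cox6b1 -0.23, sec13 2.26, MRPL13 -1.43, msna -2.22, TMBIM1 0.76, pllp 1.599, CTH -0.29, PSMB5 -1.69, ier2 -0.40, ptn 0.79 and si:ch211-39i2.2 -0.11.

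No paired analysis was possible because the cells of 1 pool carry no replicate number. The planned 45 dpf comparison was not run, as its columns match no label, and the 13 mpf pool, with 1 low-insulin cell, was not divided. At a mean of 2 to 3 the differences of the 30 and the 57 cells had a correlation of 0.03, and those of the 30 cells and their repeat 0.98. These correlations were not computed again with thinned reads, so the part of depth in them was not tested.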
